A study of Mus musculus with 5 samples.

Results

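A set of 32 genes that skeletal muscle fibres use for contraction, calcium handling and energy supply was followed through 5 RNA sequencing libraries from LLC tumors. The members were chosen by name as genes of the sarcomere and the muscle fibre, and all 32 were found among the 13979 gene symbols that the 3 tables used for the levels share. LLC is a mouse lung carcinoma line derived from C57BL/6 mice, and by the study's methods the RNA came from tumors of treated mice, where subcutaneous tumors were raised in the flank. The labels of the samples instead speak of cells kept and treated in culture. The 5 groups had 1 library each. Control carries no named agent. BMN received BMN673 (talazoparib), an inhibitor of the DNA repair enzyme PARP. PAZA received the polymer carrier that holds the DNA methyltransferase inhibitor azacytidine. BMN/PAZA low dose and BMN/PAZA high dose received BMN loaded in that carrier at a lower and a higher dose, and by the study's methods the amounts of both drugs differ between them. By the paper's supplement, BMN alone and PAZA alone were given at the dose of the low dose combination. Replicate error could not be had from single libraries, so values are given without SD and without p-values, and each difference is one between libraries rather than between treatments.

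Skeletal muscle fibres contract when myosin in the thick filament pulls on actin in the thin filament, and calcium released from the sarcoplasmic reticulum opens the thin filament through troponin and tropomyosin. Fast fibres use their own set of myosin heavy chains, light chains, troponins and calcium pumps, and slow fibres use another. Most of these proteins are made in quantity only in muscle, but TPM2 (a tropomyosin), ENO3 (an enolase) and DES (desmin, an intermediate filament) also appear in other cells such as fibroblasts or smooth muscle. In bulk RNA, fewer cells of a type and less RNA per cell cannot be told apart.

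The promoters of 4 members that the results turn on are shown so that the muscle regulatory motifs can be read in them: ACTA1, skeletal muscle actin, CKM, the muscle creatine kinase that buffers ATP, MYH4, the myosin heavy chain of the fastest fibres, and MYLPF, the fast regulatory light chain. Each is the 250 bases before the RefSeq start on GRCm38.p6, 5′ to 3′ on the gene's strand. Capitals mark E-boxes (CANNTG, the motif of MyoD-family factors), CArG boxes (the motif of serum response factor) and MEF2 boxes. The windows are chr8:123894776-123895025 on the minus strand for ACTA1, and on the plus strand chr7:19410844-19411093 for CKM, chr11:67237562-67237811 for MYH4 and chr7:127211358-127211607 for MYLPF.
ACTA1: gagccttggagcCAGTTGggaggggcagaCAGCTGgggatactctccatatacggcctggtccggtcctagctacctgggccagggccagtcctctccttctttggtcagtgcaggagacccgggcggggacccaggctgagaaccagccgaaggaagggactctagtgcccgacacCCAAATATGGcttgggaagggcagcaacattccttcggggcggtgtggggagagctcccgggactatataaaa
CKM: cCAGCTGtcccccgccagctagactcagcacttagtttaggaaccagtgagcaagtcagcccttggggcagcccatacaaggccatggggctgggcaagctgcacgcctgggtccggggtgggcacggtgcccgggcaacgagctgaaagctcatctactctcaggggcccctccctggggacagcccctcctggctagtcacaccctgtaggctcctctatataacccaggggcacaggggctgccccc
MYH4: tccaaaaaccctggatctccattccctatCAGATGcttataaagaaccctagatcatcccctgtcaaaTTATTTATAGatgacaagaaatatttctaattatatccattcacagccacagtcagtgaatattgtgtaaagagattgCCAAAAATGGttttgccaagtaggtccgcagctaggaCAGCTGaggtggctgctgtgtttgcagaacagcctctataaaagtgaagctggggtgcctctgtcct
MYLPF: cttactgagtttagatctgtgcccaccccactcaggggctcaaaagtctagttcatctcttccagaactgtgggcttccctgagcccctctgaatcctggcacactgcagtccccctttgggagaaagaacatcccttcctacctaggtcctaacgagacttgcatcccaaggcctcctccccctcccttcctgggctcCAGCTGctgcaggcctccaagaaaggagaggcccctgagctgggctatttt

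ACTA1 carried 2 E-boxes and 1 CArG box, MYH4 carried 2 E-boxes, 1 CArG box and 1 MEF2 box, and CKM and MYLPF carried 1 E-box each. Promoters were found in RefSeq for 23 of the 32 members. An E-box on either strand was present in 18 of these 23, against 66.2% of all 32851 promoters of the same length. The form CAGCTG, which is included in CANNTG, was present in 12 of 23 members (52.2%) and in 13.0% of all promoters. CArG boxes stood in 3 members (ACTA1, MYH4 and LDB3) against 1.47% of all promoters, and MEF2 boxes in 4 (TTN, MYH1, MYH4 and PVALB) against 2.92%. TATAAA was present in 4 members and in 12.4% of all promoters. These matches are descriptions of the letters and not evidence of binding.

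The members fell into a clear order of libraries. Levels below are the deposited values, scaled so that each library sums to 1e+06 over the shared symbols, and are therefore ppm, parts of 1e+06, of per-length values. Control and PAZA come from 1 deposited table, BMN and high dose from another and low dose from its table with high dose. These tables were normalized separately, so levels set across them rest on this scaling, and without counts the depth of each library is unknown. The summed level of the 32 members was 85.1 in Control, 412 in BMN, 190 in PAZA, 97.8 in BMN/PAZA low dose and 475 in BMN/PAZA high dose. The sum was thus 4.83 times the Control value in BMN, 2.23 times in PAZA, 1.15 times in the low dose library and 5.58 times in the high dose library. TPM2 alone made up 53.8% of the Control sum and 60.9% of the low dose sum, against 19.2% in BMN, 33.9% in PAZA and 16.9% in the high dose library. Without TPM2 and ENO3, an alternative added after the data were seen, the sums were 33.8, 324, 119, 27.7 and 387 in the same order, so that BMN and the high dose library stood 9.58 and 11.4 times above Control and the low dose library at 0.820 of it.

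The median member reflected the order of the sums without TPM2 and ENO3, in which low dose is below Control. It stood at 0.360 in Control, 5.53 in BMN, 2.48 in PAZA, 0.301 in the low dose library and 6.99 in the high dose library. Over all shared symbols the median level lay between 7.38 and 8.94 in every library, and the median member came nearest to it in the high dose library. The number of members listed at 0 was 5 in Control, 1 in BMN, 1 in PAZA, 9 in the low dose library and 0 in the high dose library. Levels of at least 10 were reached by 1, 11, 3, 2 and 12 members respectively. The 32 members held 0.0412% of the scaled sum in BMN and 0.0475% in the high dose library, so muscle transcripts were a small part of each tumor library.

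**Figure D1:**
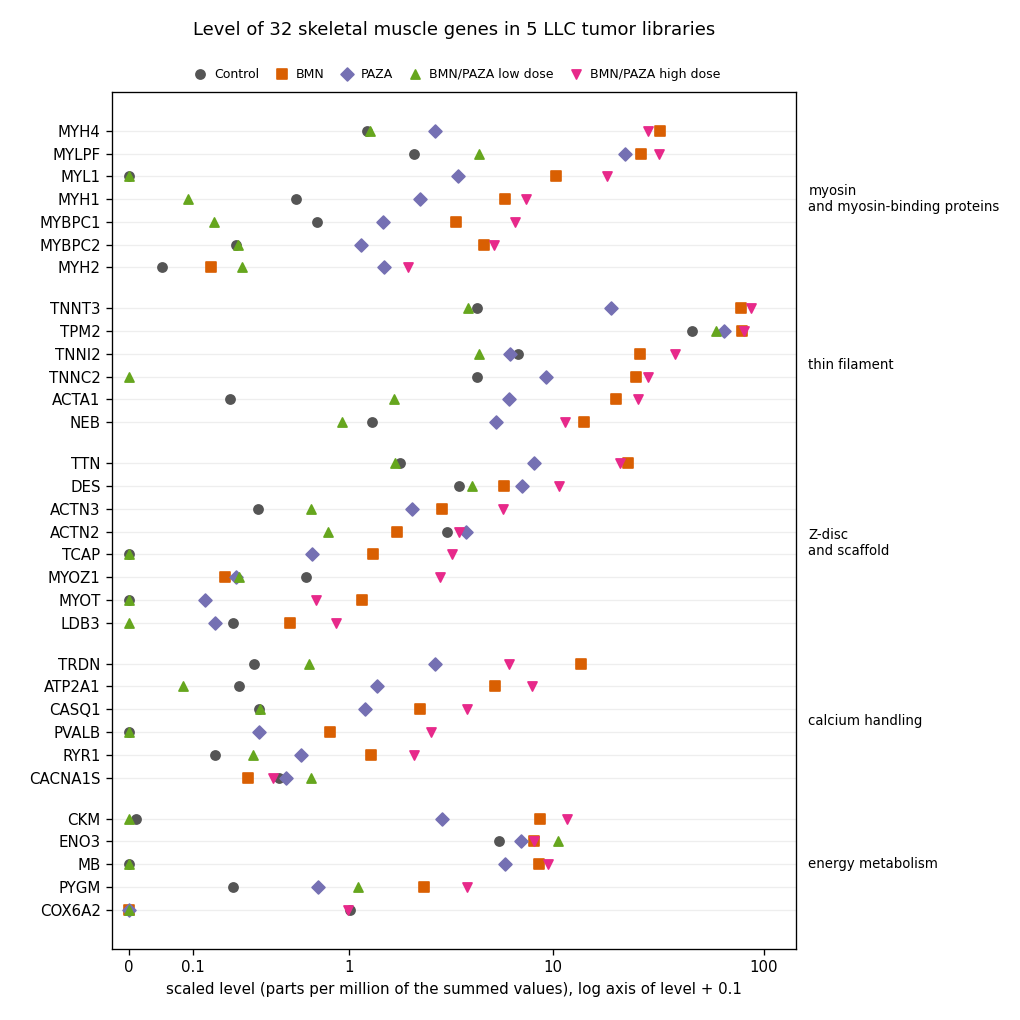
Scaled level (ppm of the summed values, log axis of level + 0.1) of each of the 32 muscle genes in the 5 libraries, 1 point per library, grouped by role. In most rows BMN and BMN/PAZA high dose lie furthest to the right and Control and BMN/PAZA low dose furthest to the left, with PAZA between them, as in ACTA1 (19.8 and 25.4 against 0.199 and 1.69, with PAZA at 6.16).

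On the log2(scaled level + 1) scale the median member was 1.53 higher in BMN than in Control, while the median over all symbols was 0.093. A member was called where this difference was at least 1, which is 2-fold on that scale and understates the change of genes with low levels. By this rule 21 of 32 members were higher in BMN, against 4.66% of all symbols, and 1, COX6A2, was lower, against 2.25%. In PAZA the median member difference was 0.78 (all symbols -0.068), with 12 of 32 higher against a background of 3.47% and 1 (COX6A2) lower against 3.53%. All comparisons with Control share its single library.

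The 2 combination libraries differed widely from each other. In the high dose library the median member difference from Control was 2.25 (all symbols -0.17), 25 of 32 members were at least 2-fold higher against 3.20% of all symbols, and 0 were lower against 4.95%. In the low dose library the median over the 27 members above 0 in either library was 0.0076 (all symbols -0.034). There ACTA1 alone was called higher, against a background of 3.65%, and TNNC2, ACTN2 and COX6A2 were called lower, against 3.54%. Set directly against the low dose library, the high dose library had 26 of 32 members at least 2-fold higher, against 2.34% of all symbols, with a median difference of 2.12.

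Against BMN given alone, the high dose library was similar for most members. The median difference was 0.37 (all symbols -0.27), 3 members (MYH2, PVALB and MYOZ1) were at least 2-fold higher against 2.33% of all symbols, and 1 (TRDN) was lower against 6.89%. The low dose library differed from BMN by a median of -1.94 (all symbols -0.14), with 20 of 31 members at least 2-fold lower against 5.86% of all symbols. Against PAZA, the carrier without BMN, the low dose library differed by a median of -0.92 (all symbols 0.031), with 15 of 31 members at least 2-fold lower against 2.78% of all symbols. In direct ratios of levels, high dose to BMN had a median of 1.44 over the 31 members above 0 in BMN, 26 of them above 1 and 25 within 2-fold. The ratio ran from 0.455 for TRDN to 15.3 for MYOZ1.

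The orders counted next were taken from the members' own levels, so the shares beside them are a description and not a test. Counted gene by gene, BMN and the high dose library were both above the other 3 libraries in 25 of 32 members, whereas 7.10% of all symbols had this order. The exceptions were MYH2, ACTN2, CACNA1S, ENO3, MYOZ1, COX6A2 and DES. BMN, PAZA and the high dose library were all above both Control and low dose in 23 of 32 members, against 6.96% of all symbols. The high dose library was the highest of the 5 in 23 members, BMN in 5 (MYH4, TTN, NEB, MYOT and TRDN), low dose in 2 (CACNA1S and ENO3), PAZA in 1 (ACTN2) and Control in 1 (COX6A2). The matching shares over all symbols were not computed, so these counts have no background beside them. PAZA had an intermediate place: its level relative to the mean of BMN and high dose had a median of 0.300 over 31 members, and 23 of them were below 0.5.

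**Figure D2:**
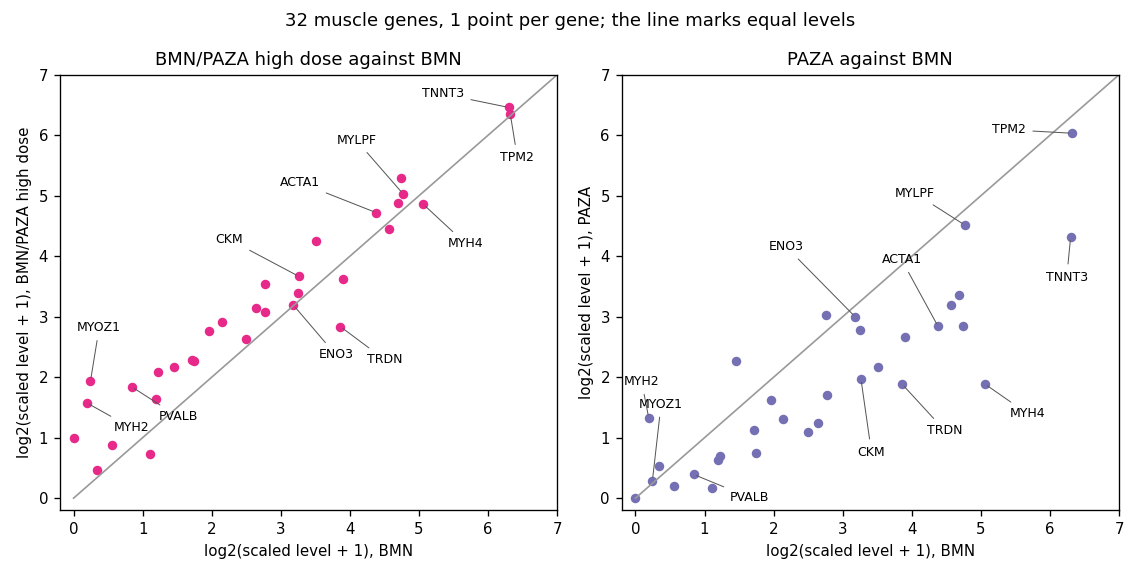
Level of each of the 32 muscle genes on the log2(scaled level + 1) scale in BMN/PAZA high dose (left) and in PAZA (right) against BMN, 1 point per gene, with the line of equal levels. On the left the points follow the line, with MYH2, MYOZ1 and PVALB above it and TRDN below it. On the right most points lie below the line and MYH4, at 2.70 in PAZA and 32.3 in BMN, lies far below it.

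The profile over the 32 members was most alike between BMN and the high dose library, with Pearson r = 0.96 and Spearman rho = 0.96 on the log2 scale. PAZA resembled both, with r = 0.88 to BMN and 0.89 to high dose. Control and low dose had r = 0.87 and rho = 0.69, and Control and BMN had r = 0.60 and rho = 0.48. These coefficients run across genes, which are not independent replicates, and all pairs share the members that are high in every library, TPM2 foremost.

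Among the myosin genes, the sums over the 7 members were 4.79 in Control, 83.0 in BMN, 34.5 in PAZA, 6.39 in low dose and 99.1 in high dose. MYH4 stood at 1.23 in Control, 32.3 in BMN, 2.70 in PAZA, 1.27 in low dose and 28.1 in high dose. MYLPF stood at 2.12, 26.2, 21.9, 4.40 and 31.8 in the same order. PAZA came close to BMN for the light chain (10.3 times Control) but not for the heavy chain (2.20 times Control). MYL1, the fast essential light chain, was listed at 0 in Control and low dose and stood at 10.4 in BMN, 3.48 in PAZA and 18.0 in high dose. MYBPC2, the fast myosin-binding protein C, stood at 0.220, 4.66, 1.14, 0.228 and 5.22. MYBPC1, its counterpart best known from slow fibres, stood at 0.669, 3.42, 1.49, 0.153 and 6.54, and was therefore lowest in the low dose library. Of the 7 myosin members, 6 were called at least 2-fold higher than Control in BMN, 4 in PAZA, 0 in low dose and 7 in high dose, against 4.66%, 3.47%, 3.65% and 3.20% of all symbols.

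The 3 adult fast heavy chain genes lie next to each other on chromosome 11 of GRCm38, MYH2 at chr11:67171027-67197517, MYH1 at chr11:67200052-67224575 and MYH4 at chr11:67238029-67260446, all on the plus strand and within 89420 bases. Their summed level was 1.79 in Control, 38.3 in BMN, 6.48 in PAZA, 1.61 in low dose and 37.6 in high dose. MYH4, which marks type IIb fibres, took 84.3% of this sum in BMN, 74.9% in high dose, 79.3% in low dose and 68.8% in Control, but 41.7% in PAZA. MYH1, the IIx chain, took 15.3% in BMN, 19.8% in high dose, 35.1% in PAZA, 28.8% in Control and 5.64% in low dose. MYH2, the IIa chain, took 0.372% in BMN, 5.27% in high dose and 23.2% in PAZA, with 2.41% in Control and 15.1% in low dose. PAZA thus had the most even mixture of the 3 fast chains, and BMN the one most dominated by MYH4.

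**Figure D3:**
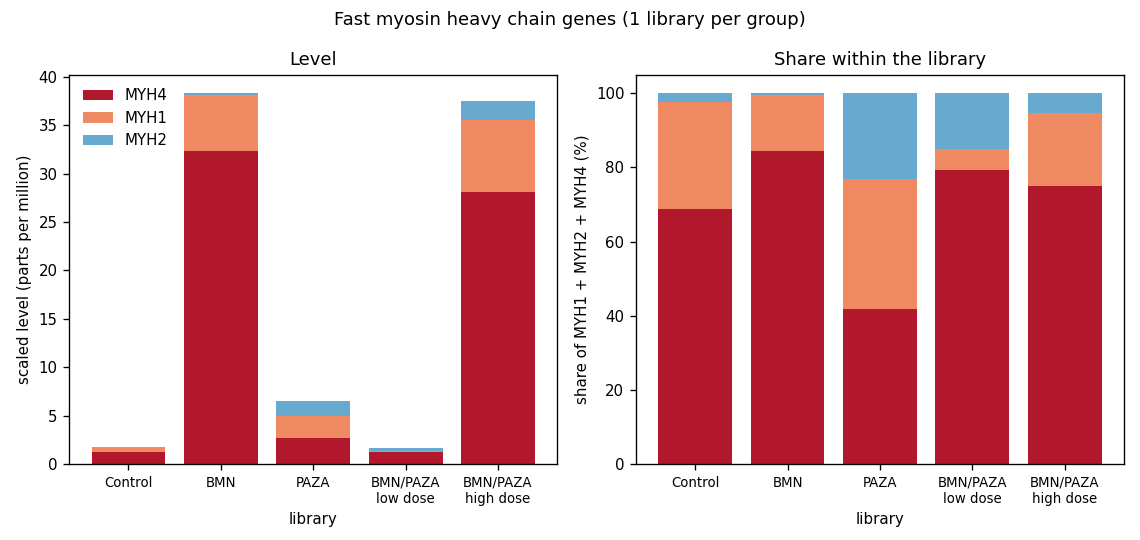
Stacked levels (left, ppm) and shares of their sum (right, %) of MYH4, MYH1 and MYH2 in the 5 libraries, 1 library per group. BMN and BMN/PAZA high dose have sums of 38.3 and 37.6 against 6.48 or less in the other 3, and MYH4 is the largest part everywhere, with its smallest share, 41.7%, in PAZA.

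In levels, MYH1 stood at 0.514 in Control, 5.86 in BMN, 2.28 in PAZA, 0.0905 in low dose and 7.45 in high dose, and MYH2 at 0.0431, 0.143, 1.504, 0.242 and 1.98. Among the members above 0 in BMN, MYH2 had the largest ratio of high dose to BMN after MYOZ1, at 13.9. The low Control and low dose levels mean that the heavy chain shares of these libraries rest on very little signal. The transcripts are similar in sequence: of all 75-base windows in their coding transcripts, 16.6% for MYH1, 16.3% for MYH2 and 9.68% for MYH4 also occur in a transcript of another gene, so the split among them is uncertain. For 27 of the 32 members no window was shared. The slow heavy chain MYH7 was not listed with Control and PAZA and was at 0 in BMN. It stood at 0.145 in low dose and 0.556 in high dose, which was 8.28% and 1.46% of the 4 heavy chains. With MYH7 included, the MYH4 share was 72.7% in low dose and 73.8% in high dose.

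The thin filament genes held the most abundant members. Their 6 levels summed to 62.7 in Control, 241 in BMN, 110 in PAZA, 70.4 in low dose and 270.5 in high dose. TNNT3, the fast troponin T, stood at 4.33 in Control, 77.8 in BMN, 18.9 in PAZA, 3.88 in low dose and 87.1 in high dose, the highest of all members in the last of these. ACTA1 stood at 0.199, 19.8, 6.16, 1.69 and 25.4, and was the only member called higher than Control on the log2(scaled level + 1) scale in all 4 treated libraries. In direct ratios of levels MYLPF, TRDN, ACTN3, PYGM and MYH2 were also at least 2 times Control in all 4. TNNC2, the fast troponin C, was listed at 0 in low dose and stood at 4.33 in Control, 24.8 in BMN, 9.23 in PAZA and 28.4 in high dose. TNNI2, the fast inhibitory troponin, stood at 6.75, 25.7, 6.23, 4.43 and 38.1. It was 1 of the 4 members without a higher level in PAZA than in Control. NEB, the nebulin ruler of the thin filament, stood at 1.31, 14.0, 5.33, 0.910 and 11.3.

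TPM2 behaved unlike the troponins, with 45.8 in Control, 79.1 in BMN, 64.5 in PAZA, 59.5 in low dose and 80.3 in high dose. Its order of libraries was that of the set, but its range was less than 2-fold. TNNT3 and ACTA1 can be compared within each library: TNNT3 was 3.92 times ACTA1 in BMN, 3.07 times in PAZA, 2.30 times in low dose and 3.43 times in high dose. In Control the same ratio was 21.8, with ACTA1 at 0.199 and TNNT3 at 4.33. The ratio of MYLPF to TNNT3 was 0.338 in BMN, 0.365 in high dose, 1.16 in PAZA, 1.13 in low dose and 0.488 in Control, so PAZA and low dose had more of the light chain for their troponin T.

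In the Z-disc and scaffold group the 8 members summed to 9.53 in Control, 36.4 in BMN, 22.3 in PAZA, 7.43 in low dose and 48.3 in high dose, and TTN, the giant spring titin, led the group in BMN and high dose. TTN stood at 1.80 in Control, 22.8 in BMN, 8.13 in PAZA, 1.70 in low dose and 20.8 in high dose. ACTN3, the fast-fibre alpha-actinin that anchors thin filaments, stood at 0.305, 2.91, 2.08, 0.625 and 5.76. Its close relative ACTN2 went its own way, with 3.09 in Control, 1.74 in BMN, 3.82 in PAZA, 0.775 in low dose and 3.51 in high dose. Both alpha-actinins were lower in low dose than in PAZA and high dose, but ACTN2 alone was higher in Control than in BMN.

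DES stood at 3.54 in Control, 5.80 in BMN, 7.12 in PAZA, 4.09 in low dose and 10.6 in high dose, and 3.0 times the Control level in the last of these. TCAP, which caps titin at the Z-disc, and MYOT, the Z-disc protein myotilin, were listed at 0 in Control and low dose. TCAP stood at 1.33 in BMN, 0.630 in PAZA and 3.25 in high dose, and MYOT at 1.16, 0.128 and 0.667. LDB3, a PDZ-LIM protein of the Z-disc, never reached 1, with 0.210, 0.477, 0.153, 0 and 0.848 in the order Control, BMN, PAZA, low dose and high dose. MYOZ1, a calcineurin-binding Z-disc protein of fast fibres, was at 0.585, 0.185, 0.219, 0.232 and 2.83, and so stood out in the high dose library alone. In this group 4 members were called at least 2-fold higher than Control in BMN, 2 in PAZA, 0 in low dose and 5 in high dose, against 4.66%, 3.47%, 3.65% and 3.20% of all symbols.

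The calcium handling genes summed to 1.39 in Control, 23.4 in BMN, 6.58 in PAZA, 1.92 in low dose and 23.0 in high dose. ATP2A1, the fast calcium pump SERCA1 that refills the sarcoplasmic reticulum, stood at 0.229, 5.26, 1.38, 0.0789 and 7.88. TRDN, the reticulum protein triadin, stood at 0.288, 13.5, 2.69, 0.610 and 6.15. TRDN was thereby the calcium gene with the highest level in BMN and the only member at least 2-fold lower in high dose than in BMN. CASQ1, the calcium store calsequestrin of fast fibres, stood at 0.310, 2.27, 1.20, 0.316 and 3.87, and RYR1, the calcium release channel, at 0.154, 1.29, 0.546, 0.285 and 2.11. PVALB, the calcium buffer parvalbumin of fast fibres, was listed at 0 in Control and low dose and stood at 0.792 in BMN, 0.313 in PAZA and 2.59 in high dose. CACNA1S, the voltage sensor that opens RYR1, did not follow its partner: it stood at 0.411 in Control, 0.263 in BMN, 0.450 in PAZA, 0.625 in low dose and 0.379 in high dose.

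Of the 5 energy metabolism members, CKM stood at 0.00732 in Control, 8.61 in BMN, 2.92 in PAZA, 0 in low dose and 11.7 in high dose. MB, the oxygen store myoglobin, was listed at 0 in Control and low dose and stood at 8.55 in BMN, 5.86 in PAZA and 9.48 in high dose. For MB, PAZA reached 0.650 of the mean of BMN and high dose, against 0.288 for CKM. PYGM, the muscle glycogen phosphorylase, stood at 0.209 in Control, 2.36 in BMN, 0.683 in PAZA, 1.10 in low dose and 3.84 in high dose. It was one of the members whose level in low dose exceeded that in PAZA. ENO3 varied little, with 5.52, 8.08, 6.98, 10.5 and 8.14, and was highest in low dose. COX6A2, the muscle isoform of a cytochrome oxidase subunit, was listed at 0 in BMN, PAZA and low dose and stood at 1.0 in Control and 0.982 in high dose.

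By fibre type, the sum of the 13 members that mark fast fibres was 20.4 in Control, 219 in BMN, 72.3 in PAZA, 15.6 in low dose and 266 in high dose. Of these 13, 11 were called at least 2-fold higher than Control in BMN, 6 in PAZA, 0 in low dose and 13 in high dose, against 4.66%, 3.47%, 3.65% and 3.20% of all symbols. Of the 14 slow-fibre markers listed, MYL2, MYL3 and TNNI1 were not in all 3 tables, nor was MYH7. The 9 found that are not members summed to 540 in Control, 640 in BMN, 454 in PAZA, 444 in low dose and 510 in high dose, nearly all of it from TPM3 and ATP2A2, which many cell types express. MYBPC1 is also on the slow list but is a member and is left out of these values. Its log2 difference from Control was 1.40 in BMN, 0.58 in PAZA, -0.53 in low dose and 2.17 in high dose. TNNT1, the slow troponin T, stood at 10.3 in Control, 12.0 in BMN, 19.5 in PAZA, 10.96 in low dose and 20.8 in high dose. The median difference of the slow list from Control was 0.24 in BMN, -0.014 in PAZA, -0.12 in low dose and 0.12 in high dose. Called higher were 2 of 8 in BMN (CSRP3 and CASQ2), 1 of 9 in PAZA (CASQ2), 0 of 7 in low dose and 3 of 9 in high dose (CSRP3, ANKRD2 and CASQ2), against 4.66%, 3.47%, 3.65% and 3.20% of all symbols. MYOZ2 was called lower in high dose, against 4.95%.

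A wider list of 66 muscle genes that are not members had 43 in all 3 tables. Their median difference from Control was 0.43 in BMN, 0.092 in PAZA, -0.0094 in low dose and 0.36 in high dose. Called at least 2-fold higher than Control were 8 of 43 in BMN, 5 of 43 in PAZA, 0 of 36 in low dose and 11 of 43 in high dose, against 4.66%, 3.47%, 3.65% and 3.20% of all symbols. Called lower were 1 each in BMN, PAZA and high dose and 0 in low dose, against 2.25%, 3.53%, 4.95% and 3.54%. BMN and high dose were above the other 3 libraries, the order taken from the members' levels, in 21 of 43, against 7.10% of all symbols. The most abundant of them were CHRNB1 (21.1 to 33.3), PFKM (12.2 to 19.7) and COX7A1, which was 17.5 in Control and 4.51 in BMN. These 3 had levels in every library, and of them PFKM had BMN and high dose above the other 3.

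Among genes of muscle formation and repair, the 7 found of the embryonic and regenerating list that are not members summed to 23.5 in Control, 27.4 in BMN, 16.5 in PAZA, 17.6 in low dose and 17.4 in high dose. None was called higher than Control on the log2(scaled level + 1) scale, against 4.66%, 3.47%, 3.65% and 3.20% of all symbols in BMN, PAZA, low dose and high dose. With so few genes this is near those shares, and the scale understates differences at levels this low. NCAM1, also a nerve and leukocyte adhesion molecule, made up most of this sum. Embryonic myosin MYH3 stayed between 0.260 and 0.359, and PAX3 between 0.692 and 2.53, where the lowest value, in high dose, was called lower than Control, against 4.95% of all symbols. MYF6, the myogenic factor of mature fibres, was listed at 0 in Control and low dose and stood at 0.569 in BMN, 0.225 in PAZA and 0.931 in high dose. The 12 muscle atrophy genes found had medians between -0.072 and 0.064 in the 4 treated libraries, with MT1 (52.1 to 103), GADD45A (23.8 to 46.4) and MT2 (13.0 to 35.1) the most abundant. Called higher were 0 in BMN, 2 in PAZA (EDA2R and MT2), 0 in low dose and 1 in high dose (MT2), against 4.66%, 3.47%, 3.65% and 3.20% of all symbols. Here too the scale understates differences at low levels. TRIM63 stood at 0.150 in Control, 0.986 in BMN, 0.976 in PAZA, 0.309 in low dose and 1.21 in high dose. FBXO32 went the other way, with 4.22 in Control and 2.16 in high dose.

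**Figure D4:**
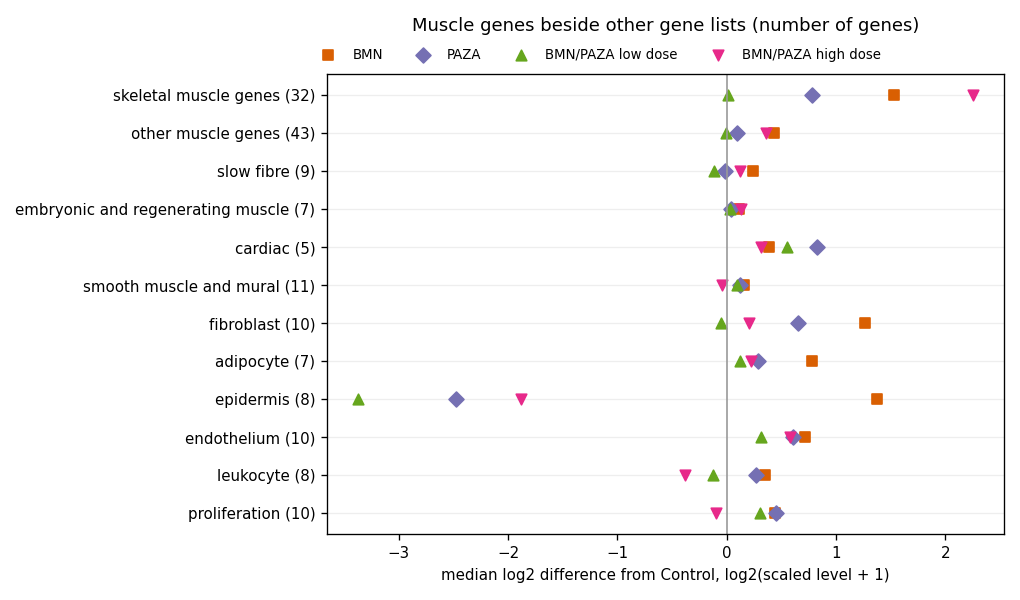
Median difference from Control on the log2(scaled level + 1) scale for the muscle genes and 11 other gene lists, 1 point per treated library, with the number of genes in parentheses. The muscle genes have the highest medians for BMN/PAZA high dose (2.25) and BMN (1.53), and the epidermis list has the lowest values, in BMN/PAZA low dose (-3.37), PAZA (-2.48) and BMN/PAZA high dose (-1.89).

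Markers of other cells moved with the libraries too, and their part in the muscle values was not tested. The 10 fibroblast markers summed to 380 in Control, 970 in BMN, 631 in PAZA, 378 in low dose and 406 in high dose, with 8 of 10 called at least 2-fold higher in BMN and 0 of 10 in high dose, against 4.66% and 3.20% of all symbols. COL3A1 led them with 552 in BMN and 220.1 in high dose, followed by THY1 (141 and 51.3) and DCN (126 and 65.0). The fibroblast and muscle genes were thus both highest, or nearly so, in BMN, while in high dose the muscle genes were high and the fibroblast genes were near Control. The 8 epidermis markers found summed to 162 in Control, 301 in BMN, 76.3 in PAZA, 61.9 in low dose and 87.3 in high dose, and KRT5, KRT1, KRT15 and DSG1A were at 0 in low dose. Of the most abundant of them, SBSN stood between 52.4 and 72.0, KRT5 ran from 0 to 67.3 and KRT14 from 0.511 to 62.9. Adipocyte markers (7 found, led by FABP4, PNPLA2 and CFD) summed to 70.5, 122, 132, 79.9 and 89.2 in the order Control, BMN, PAZA, low dose and high dose.

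The 10 endothelial markers, led by PECAM1, EGFL7 and EMCN, summed to 48.8, 78.6, 96.1, 60.1 and 64.6. The 8 leukocyte markers, led by FCER1G, TYROBP and ITGB2, summed to 286, 383, 327, 243 and 206. The 10 proliferation genes, led by CDK1, TOP2A and CCNA2, summed to 892, 1214, 1068, 906 and 839, above the muscle genes in every library and by the least in high dose. Smooth muscle and mural genes (11 that are not members, led by SMTN, MYLK and RGS5) summed to 59.5, 68.9, 50.8, 48.7 and 42.3, and ACTA2 was lowest in high dose at 1.91, where ACTA1 was highest. The 5 cardiac genes found, led by TNNT2, NPPB and RYR2, summed to between 7.35 and 13.5, with MYH6, NPPA, MYBPC3, MYL7 and ACTC1 not in all 3 tables. The 6 nerve and Schwann cell genes found, led by PMP22, MBP and CDH19, summed to between 10.5 and 14.4, and the 2 lung epithelium genes found, NAPSA and HOPX, to between 1.74 and 5.99. In summed level the fibroblast, adipocyte and endothelium lists also had BMN, PAZA and high dose above Control and low dose, with BMN or PAZA the highest of the 5 in each.

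Some small RNA genes did have a similar order, chosen here after the values were seen. RNU5G, a spliceosomal RNA, was listed at 0 in Control and low dose and stood at 53.1 in BMN, 94.2 in PAZA and 74.8 in high dose. SNORA30, a small nucleolar RNA, was likewise listed at 0 in Control and low dose and stood at 26.8, 86.1 and 101. In both genes PAZA exceeded BMN, which it did in 5 of the 32 muscle genes only. Their part in the muscle values was not tested.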

How the data were processed

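RNA from 5 LLC tumor libraries, 1 per group, was sequenced and mapped by the authors to GRCm38. The submitters' processing notes name HISAT2 and StringTie without versions or settings. The authors deposited 5 tables with 2 libraries each, and no unit is written beside their values. The values deposited by the authors were taken to be FPKM (fragments per length and library size), so counts and depth are unknown and no counting interval was given. Of the 5 tables, 3 gave the levels, and the values of each member listed above 0 in the others differed only by a constant factor (within 0.5%).

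Repeated symbols were represented by the row with the highest mean, and each column was scaled to 1e+06 over the 13979 shared symbols. Differences were taken on the log2(scaled level + 1) scale, and a difference of at least 2-fold on that scale was called. No test was possible with 1 library per group. Scripts (Python 3.11.15, numpy 2.4.6, pandas 2.3.3, matplotlib 3.10.9) were checked on simulated data. All members were named, and of each other list the 3 genes of highest mean level. MYH3, ACTA2, KRT1, KRT15, DSG1A, EDA2R, TRIM63, FBXO32 and the called slow-fibre genes were named after their values were seen. The members and the 16 lists were chosen with earlier results of these data known. Gene positions came from GENCODE on GRCm38 and promoters from RefSeq GRCm38.p6. Alternatives were another pseudocount, a filter on low values, other scalings, the other tables, summed rows and reduced member sets.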

Additional observations from a re-analysis of the deposited data

Results flagged for a closer look

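The low dose and high dose combinations differed from BMN in opposite directions over the muscle genes: the median member was -1.94 on the log2(scaled level + 1) scale for BMN/PAZA low dose minus BMN and 0.37 for BMN/PAZA high dose minus BMN. PAZA alone was above Control by a median of 0.78. The low dose combination, which holds the same carrier, was below BMN but level with Control, at a median of 0.0076 from it. These differences were not tested, since each group has 1 library.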

How the results depend on the processing

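With a pseudocount of 0.1 the median member differences grew to 3.08 for BMN, 1.81 for PAZA and 3.54 for BMN/PAZA high dose against Control, to 3.34 for high dose minus low dose, -3.48 for low dose minus BMN and -1.98 for low dose minus PAZA. The counts against Control then were 23 higher and 2 lower in BMN (12.0% and 6.49% of all symbols) and 23 higher and 2 lower in PAZA (10.5% and 9.64%). They were 4 higher and 7 lower in low dose (10.9% and 7.87%) and 27 higher and 0 lower in high dose (8.70% and 11.4%). At this setting BMN and PAZA thus had the same number of members called higher, unlike the 21 and 12 of the main setting. Over the 24 members with a mean level of at least 1, the BMN median was 2.25 and 0 members were called lower in BMN or in PAZA. That mean runs over all libraries, so a member can pass through its BMN and high dose levels alone, and these values are no added support. Scaling without the 10 highest symbols gave sums of 141 in Control, 651 in BMN, 322 in PAZA, 166 in low dose and 911 in high dose, and a median of 2.75 for high dose minus low dose. Without the 5 highest members (TPM2, TNNT3, MYLPF, TNNI2 and TNNC2) the sums were 21.8, 178, 69.4, 25.6 and 209, and BMN and high dose stood 8.15 and 9.59 times above Control. Without TPM2 and ENO3, chosen after seeing the data, the sums were 33.8 in Control, 119 in PAZA and 27.7 in low dose, and the ratios to Control 9.58 for BMN, 3.50 for PAZA and 11.4 for high dose. The pseudocount and the smaller gene sets act by construction. Scaling without the 10 highest symbols divides by a smaller sum, so all levels rise by construction, and why the rise differed between libraries was not tested. Of the values for the whole set under all alternatives, 142 stayed within 1.5 times and 33 moved, and 0 changed direction among called values. For single members 639 stayed and 91 moved.

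No paired analysis was possible because each group has 1 library, and no library was left out for the same reason. Unknown depth limits what a value of 0 shows.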

Other observations

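Ranked after the values were seen by the gap between the lower of BMN and BMN/PAZA high dose and the higher of Control and low dose, 15 of the first 20 and 17 of the first 30 of the 13979 symbols were members. RNU5G and SNORA30 held ranks 1 and 2, above every member. SNORA7A, FNTB, OSCP1, TMEM265, HDDC3 and YJEFN3 were also among the 13 others in the first 30. The rest of these others are given below. CAR3, a carbonic anhydrase abundant in muscle and fat, stood at 1.88 in Control, 19.3 in BMN, 3.47 in PAZA, 1.92 in low dose and 20.5 in high dose. H19, an imprinted RNA of embryonic tissue and muscle, was listed at 0 in Control and stood at 6.33 in BMN, 6.67 in PAZA, 0.339 in low dose and 8.86 in high dose. PDLIM3, a Z-disc protein of the wider muscle list, stood at 0.193, 4.55, 2.89, 0.863 and 4.12. NEXN, an actin-binding protein of striated and smooth muscle, stood at 2.02, 17.8, 4.51, 1.51 and 6.50. The myosin light chain pseudogene MYLF-PS, which shares 16.6% of the 75-base windows of MYL1, was listed at 0 in Control and low dose and stood at 1.61, 1.93 and 2.91 in BMN, PAZA and high dose.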
